A study of Homo sapiens with 6 samples.

Results

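UCHL1 peaks that lay in protein-coding exons, away from promoters, numbered 104 of the 5873 peaks on chromosomes 1 to 22 and of 6813 peaks in all. A peak was counted when its midpoint fell in coding sequence of a protein-coding transcript (GENCODE 44 mapped to hg19) and when no base of it came within 1 kb of a protein-coding transcription start. The rule used positions only, so the strength and overlap of these coding-exon peaks were free to differ from those of other peaks. Their base content was not, because the rule asks for coding sequence at the midpoint. It is therefore set beside coding windows. DU 145 cells cross-linked with formaldehyde gave 4 coding-exon peaks of 2574 peaks on chromosomes 1 to 22. DU 145 cells with dual cross-linking gave 24 of 1274, and HEK293T cells with dual cross-linking gave 76 of 2025.

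The series profiled the genomic distribution of UCHL1 by ChIP-seq with a UCHL1 antibody. DU 145 is a prostate cancer line from a brain metastasis, and HEK293T is an embryonic kidney line that carries the SV40 T antigen. The study describes HEK293T as having a neuronal lineage. No gene was altered and no drug was given in any group. The groups differed in cell line and in fixation, either 1% formaldehyde alone or 1 mM DSP, an amine-reactive linker of protein to protein, followed by formaldehyde. The labels give 1% formaldehyde for dual cross-linking too, whereas the methods of the study give 0.5%. A figure legend of the study lists the HEK293T samples under formaldehyde alone. The labels and the methods give dual cross-linking for HEK293T, and that naming is used here. The methods also describe sonication of formaldehyde-fixed chromatin and micrococcal nuclease digestion of dual cross-linked chromatin, so cross-linker and fragmentation cannot be told apart. Each condition had 1 ChIP library and 1 input library, so no difference between conditions has a replicate check and no test between them was possible. The peak lists hold no measure of expression, so the identity of the lines could not be checked against marker genes.

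UCHL1 is a ubiquitin carboxyl-terminal hydrolase, an enzyme that removes small adducts from the end of ubiquitin and binds free ubiquitin, and it is among the most abundant proteins of neurons. It has no known DNA-binding domain, and ChIP with a cross-linker can also recover proteins that reach DNA through other proteins. Coding exons are the transcribed parts of a gene that are translated. They are richer in G and C than most of the genome, and in short genes they lie close to the start.

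The olfactory receptor peaks are shown first because they shared a stretch of sequence. Olfactory receptors are G protein-coupled receptors of the nasal epithelium, each usually encoded by a single coding exon, and they form the largest gene family in the human genome. The peaks are written 5′ to 3′ on the coding strand of hg19. Capitals mark the stretch of 35 bases that the 3 receptor genes had in common, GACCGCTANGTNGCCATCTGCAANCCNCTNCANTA, where N stands for a position at which they differed. The last line is a peak in a receptor pseudogene, which is not a coding-exon peak.
OR6C6, DU 145 dual, chr12:55688628-55688682, minus strand: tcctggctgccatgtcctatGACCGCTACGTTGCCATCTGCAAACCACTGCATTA
OR6C3, DU 145 dual, chr12:55725779-55725894, plus strand: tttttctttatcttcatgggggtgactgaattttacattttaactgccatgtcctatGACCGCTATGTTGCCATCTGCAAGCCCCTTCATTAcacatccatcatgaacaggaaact
OR6C3, DU 145 formaldehyde, chr12:55725766-55725878, plus strand: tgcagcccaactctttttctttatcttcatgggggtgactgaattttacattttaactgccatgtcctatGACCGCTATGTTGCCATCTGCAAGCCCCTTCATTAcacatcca
OR2B11, DU 145 dual, chr1:247614865-247614913, minus strand: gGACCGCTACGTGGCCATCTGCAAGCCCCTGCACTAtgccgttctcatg
OR4C1P, DU 145 dual, chr11:55277554-55277615, plus strand: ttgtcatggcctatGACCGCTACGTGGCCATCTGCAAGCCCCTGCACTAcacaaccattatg

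The zinc finger peaks of HEK293T are the next set, because they were the most numerous gene group. C2H2 zinc finger proteins carry tandem fingers that bind DNA, each held by a zinc ion between a pair of cysteines and a pair of histidines. Capitals mark the codons of whole fingers, from the first cysteine to the last histidine.
ZNF721, HEK293T dual, chr4:436677-436782, minus strand: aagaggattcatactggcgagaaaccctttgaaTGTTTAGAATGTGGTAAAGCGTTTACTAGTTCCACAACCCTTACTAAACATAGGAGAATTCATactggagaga
ZNF84, HEK293T dual, chr12:133634566-133634744, plus strand: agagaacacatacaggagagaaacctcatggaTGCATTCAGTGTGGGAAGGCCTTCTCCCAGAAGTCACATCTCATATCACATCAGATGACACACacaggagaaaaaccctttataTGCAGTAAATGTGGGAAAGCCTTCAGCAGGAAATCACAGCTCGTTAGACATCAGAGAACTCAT
ZNF180, HEK293T dual, chr19:44981547-44981649, minus strand: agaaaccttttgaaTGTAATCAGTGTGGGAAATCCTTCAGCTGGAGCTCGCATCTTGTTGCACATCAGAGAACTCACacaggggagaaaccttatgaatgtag

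A further set shows peaks that crossed the edge of a coding exon. Here capitals mark coding bases and lower case marks the bases outside the coding exon.
RPL3, HEK293T dual, chr22:39709672-39709795, minus strand: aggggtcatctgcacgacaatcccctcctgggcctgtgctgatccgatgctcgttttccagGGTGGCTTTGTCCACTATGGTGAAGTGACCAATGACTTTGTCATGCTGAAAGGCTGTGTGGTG
HEY2, DU 145 formaldehyde, chr6:126072986-126073055, plus strand: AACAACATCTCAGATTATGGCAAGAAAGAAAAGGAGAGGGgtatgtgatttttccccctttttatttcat

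The share of peaks in coding exons differed widely between the lists. In DU 145 cells with formaldehyde it was 0.155% (95% Wilson interval 0.0604 to 0.399%), against 1.14% of the readable positions of the same chromosomes at which a peak of the same length would count. That placement share would give 29.4 coding-exon peaks, and the list held 0.136 times that number (interval 0.0530 to 0.350). DU 145 cells with dual cross-linking had 1.88% (1.27 to 2.79%) against a placement share of 1.12%, a ratio of 1.69 (1.14 to 2.496) and 14.2 peaks by placement. HEK293T cells had 3.75% (3.01 to 4.67%) against 1.26%, a ratio of 2.97 (2.38 to 3.70) and 25.6 peaks by placement. The intervals of the 3 shares did not overlap, those of the ratios of both dual cross-linked lists did, and all cover counting error within 1 library only, not the spread between cultures. Among peaks with a score of at least 100, the share was 0.687% in the dual cross-linked DU 145 list (2 of 291 peaks) and 0.939% in HEK293T cells (2 of 213), both below the placement share of the whole list. At a false discovery rate of 5% or less the dual cross-linked DU 145 share was 1.25% (11 of 877), above that placement share, and the HEK293T share was 1.11% (4 of 360), below it.

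**Figure D1:**
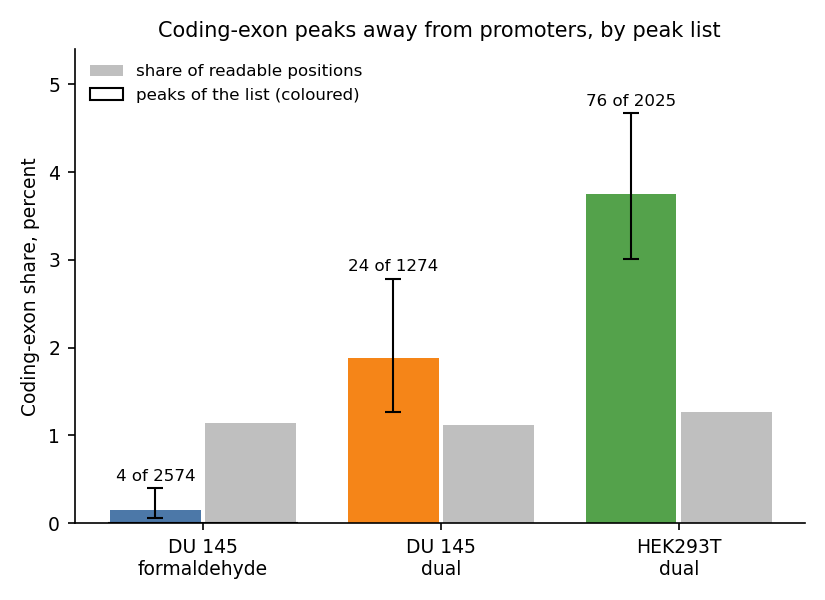
Share of each list's peaks on chromosomes 1 to 22 that were coding-exon peaks away from promoters (coloured bars, percent, with 95% Wilson intervals and the counts above) and the share of readable positions that would count (grey bars). The formaldehyde bar (0.155%) lies below its grey bar (1.14%), and the bars of both dual cross-linked lists lie above theirs.

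The other parts of genes did not all follow the coding exons. In HEK293T cells the share in promoter windows was 3.004 times its placement share, close to the 2.96 of coding exons counted in the same way at the median peak length. The share in introns there was 0.596 times its placement share. In the formaldehyde list untranslated exons, the exon parts that are not translated, held 2.41% of peaks, 1.56 times their placement share, whereas coding exons were under theirs. In the dual cross-linked DU 145 list promoters (0.960) and introns (0.928) were near their placement shares while coding exons were above theirs (1.68). In HEK293T cells 110 peaks had their midpoint in coding sequence and 34 of them (30.9%) were left out because they reached a promoter window. The same step left out 4 of 28 in DU 145 cells with dual cross-linking and 0 of 4 with formaldehyde.

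Closest to a start among the peaks kept was the BRD2 peak of HEK293T cells, 1050 bases from a start, where 9 tags gave a fold enrichment of 16.57. BRD2 encodes a bromodomain protein that binds acetylated histones. The coding peak left out that lay nearest to the 1 kb limit was in RNF40, at 983 bases, where 31 tags gave 8.55. In the dual cross-linked DU 145 list NFKBIA held the kept peak nearest to a start, at 1169 bases, where 13 tags gave 6.48. The peak left out nearest to the limit was that of CDK9, at 636 bases (27.19, 10 tags). In the formaldehyde list OR6C3 held the kept peak nearest to a start, at 1236 bases.

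HEK293T coding-exon peaks lay close to transcription starts, also beyond the 1 kb that the rule removed. The median distance from the peak to the nearest protein-coding start was 2435 bases, against 9842 bases for coding windows of the same length that met the same rule. A distance of 3 kb or less was found for 43 of 76 peaks (56.6%), against 18.2% of those windows. The dual cross-linked DU 145 median was 7493 bases against 11303, and 6 of 24 peaks (25%) were within 3 kb against 16.6%. The 4 formaldehyde peaks had a median of 1951 bases, and 3 of them were within 3 kb.

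**Figure D2:**
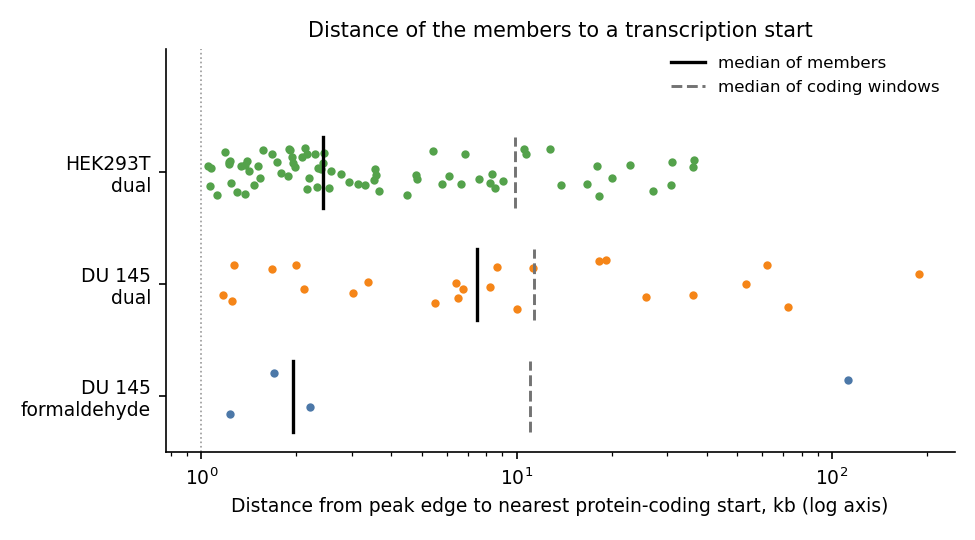
Distance from each coding-exon peak to the nearest protein-coding transcription start (kb, log axis), one point per peak, with the median of the peaks (solid line), the median of coding windows under the same rule (dashed) and the 1 kb limit (dotted). HEK293T points gather between 1 and 3 kb, with 43 of 76 there, while the DU 145 dual points spread to 188461 bases.

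HEK293T coding-exon peaks were also in shorter genes. The span of the gene, from its first start to its last end, had a median of 12.6 kb over the 76 peaks, against 41.5 kb over coding windows. Genes under 10 kb held 32 of 76 peaks (42.1%), against 11.6% of windows. Around HEK293T peaks a median of 5 protein-coding genes started within 50 kb on either side, against 2 around coding windows. The dual cross-linked DU 145 peaks did not show this, with a median span of 48.5 kb against 50.5 kb and a median of 1.5 starts against 2. Placement was matched by chromosome and not by local gene density, and the part of gene density in the HEK293T share was not tested.

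The coding-exon peaks had fold enrichments in the middle of each list. Fold enrichment is the ratio of ChIP tags to the local background from the input, as MACS gives it. Its median was 15.4 for the HEK293T coding-exon peaks and 13.7 for other peaks of that list, a ratio of 1.12. Under dual cross-linking the DU 145 medians were 16.4 and 18.0, a ratio of 0.912. The 4 formaldehyde peaks had a median of 19.7 against 16.5. Ranked by fold enrichment within their list, the coding-exon peaks had a median percentile of 59.2 with formaldehyde, 43.5 with dual cross-linking in DU 145 cells and 68 in HEK293T cells, where 13 of 76 were at or above the 90th. The range of the coding-exon peaks was narrower than that of the other peaks, with a highest fold enrichment of 24.85 against 71.31 in HEK293T and of 47.81 against 235.05 in the dual cross-linked DU 145 list.

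Tag numbers were low. The median number of tags, reads counted in the peak, was 9 for HEK293T coding-exon peaks against 12 for the others, and no coding-exon peak had more than 30 while another peak had 4810. In DU 145 cells the medians were 7 against 8 with dual cross-linking and 6.5 against 7 with formaldehyde. The lowest 3 tag numbers of the list (8 to 10 tags) held 46 of 76 HEK293T peaks (60.5%), against 44.7% of other peaks. The same 3 numbers (7 to 9 tags) held 20 of 24 dual cross-linked DU 145 peaks (83.3%), against 65.4%. In HEK293T cells the same fold enrichments recurred, with 13.81 at 5 coding-exon peaks, 16.57 at 12, 19.33 at 9, and 22.09 and 24.85 at 2 each. These values are evenly spaced, and the cause of the spacing was not tested. The highest ranks of that list thus rest on small steps between a few shared values.

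**Figure D3:**
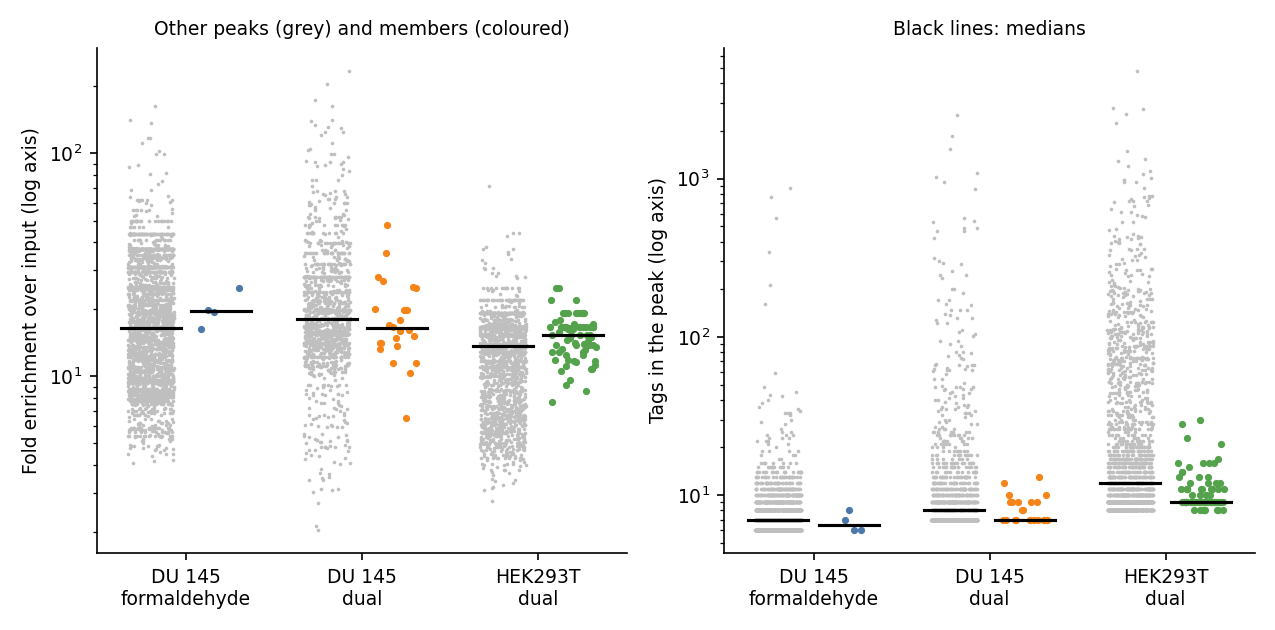
Fold enrichment over input (left) and tags per peak (right), both on log axes, for other peaks (grey) and coding-exon peaks (coloured), one point per peak, with medians as black lines. Coding-exon peaks reach at most 30 tags, while the other peaks extend to 4810.

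The false discovery rate that MACS estimates by exchanging ChIP and input was high for most of these peaks. A rate of 5% or less was given to 4 of 76 HEK293T coding-exon peaks, against a background of 17.8% of all peaks of that list. Among the dual cross-linked DU 145 peaks 11 of 24 coding-exon peaks had such a rate, where the background was 68.8%. None of the 4 formaldehyde peaks had one, where the background was 2.06%. Both dual cross-linked lists thus had a lower share among coding-exon peaks than among all peaks.

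Peaks of different lists seldom coincided in coding exons. In the formaldehyde list 2 of 4 coding-exon peaks overlapped a peak of another list by the midpoint rule, those of OR6C3 and HEY2, where the background was 6.72%. With dual cross-linking 1 of 24 DU 145 peaks did so (OR6C3), against 16.7%. None of the 76 HEK293T peaks did, against 5.58%, and a count of 0 of 76 allows a share of up to 3.95%. OR6C3 was the only gene with coding-exon peaks in more than 1 list. HEY2, a repressor that acts downstream of Notch, had a coding-exon peak with formaldehyde (8 tags, fold enrichment 16.38, false discovery rate 17.98%). The overlapping dual cross-linked DU 145 peak (10 tags, fold enrichment 19.09, 1.79%) had its midpoint in the adjoining intron.

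Some of these genes carried a peak of another list elsewhere or at the same place. This was counted over the span of the transcript taken for each peak, which can be shorter than the gene. ACTN1, HEY2 and OR6C3 of the formaldehyde peaks also held a dual cross-linked DU 145 peak. MYH13, OR6C3 and RGS7 of the dual cross-linked DU 145 peaks held a formaldehyde peak, and RGS7 also held a HEK293T peak. ADGRE3 and CACNA1A of the HEK293T peaks held a formaldehyde peak, and 0 of the 76 HEK293T peaks lay in a transcript span with a dual cross-linked DU 145 peak. These counts have no share over all peaks of the list beside them, so they show nothing particular to coding-exon peaks.

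Olfactory receptor genes held coding-exon peaks in both DU 145 lists. OR6C6 had the highest fold enrichment of the 24 dual cross-linked DU 145 coding-exon peaks, 47.81 with 12 tags and a false discovery rate of 0.93%, at the 93.5th percentile of that list. OR6C3 came next at 35.86 with 10 tags and a rate of 1.51%, and its formaldehyde peak had 19.83 with 7 tags and 26.17%. OR2B11 had 24.95 with 7 tags and 1.31%. Receptor genes made up 3 of 24 coding-exon peaks (12.5%) with dual cross-linking and 1 of 4 with formaldehyde, against 0.388% and 0.386% of coding placement. In HEK293T cells 0 of 76 were in receptor genes, against 0.353% of placement, which gives 0.268 peaks.

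The summits of these receptor peaks, printed above, fell inside the shared stretch. The stretch was built from these intervals, and its 35 bases fill most of the OR6C6 interval (55 bases) and the OR2B11 interval (49 bases). A summit inside it was thus likely from the start there, and less so in the OR6C3 intervals of 116 and 113 bases. Counted from the first base of the stretch, the summit was at base 9 in OR6C6, base 24 in OR6C3 and base 25 in OR2B11 with dual cross-linking, and at base 15 in OR6C3 with formaldehyde. The stretch encodes a part of the receptor that is well conserved across the family, at the inner end of the third transmembrane segment. The OR6C6 interval aligned to OR6C3 over its 55 bases at 85.5% identity, and the OR2B11 interval over its 49 bases at 77.6%. The 50 bases around the summit occurred once in hg19 for each of these peaks when an exact match was asked for. With up to 2 mismatches OR6C6 matched 2 places, and OR6C3 and OR2B11 matched 1 each.

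The stretch was rare. Both strands of chromosomes 1 to 22 held it at 10 places, and 4 of these lay in a peak. The stretch was built from 3 of the 4, so those 3 matches follow from its making. The fourth was OR4C1P, a receptor pseudogene on chromosome 11 that played no part in defining the stretch. OR4C1P had a peak in both DU 145 lists. Its 18 tags under dual cross-linking gave a fold enrichment of 40.97, its 9 tags under formaldehyde gave 32.9, and the summits were at base 17 and base 16 of the stretch. These intervals were 62 and 58 bases long, so the stretch covered most of each and a summit inside it was likely. The 6 places without a peak were in OR5K2, OR52K3P, OR52I2, OR52I1, OR56A5 and OR2AP1. Of 390 receptor genes with coding sequence on these chromosomes, 8 (2.05%) held the stretch, as did 0.00101% of coding windows of the length of a dual cross-linked DU 145 peak. The first 20 letters, GACCGCTANGTNGCCATCTG, occurred at 57 places, and the peaks that held them were the same 6. The search was chosen after the sequences were seen, and a match describes the letters of the interval, not a binding site.

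ACTN1, an alpha-actinin that cross-links actin filaments, had the highest fold enrichment of the 4, 24.82 with 6 tags. All 4 peaks had between 6 and 8 tags, where 6 was the lowest number in the list.

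Besides the receptors, the dual cross-linked DU 145 peaks included signalling, ciliary and muscle genes. RGS7, which speeds GTP hydrolysis by G protein alpha subunits, had a fold enrichment of 27.89 with 9 tags. ZNF587B had 26.77 with 7 tags, and EVC, a ciliary protein of Hedgehog signalling, had 25.19 with 7 tags. The 6 highest fold enrichments of the 24 were thus those of 3 receptor genes, RGS7, ZNF587B and EVC. NFKBIA, the inhibitor that holds NF-kappaB in the cytoplasm, had the most tags of the 24 (13) and the lowest fold enrichment (6.48).

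Of these peaks 4 were in genes of muscle sarcomeres, picked after the values were seen and compared with no background. MYH2, MYH1 and MYH13, which encode muscle myosin heavy chains in a cluster on chromosome 17, had fold enrichments of 20.02, 15.14 and 17.91, with 9, 7 and 7 tags and false discovery rates of 2.42%, 5.3% and 5.34%. TTN, which encodes the giant sarcomere protein titin, had 19.92 with 7 tags, in coding exon 292 of 362. The MYH2 summit sequence had 2 matches in hg19 with up to 2 mismatches. Other peaks with a false discovery rate of 5% or less included those in ATP4A, the alpha subunit of the gastric proton pump (16.68, 10 tags), and CEPT1, an enzyme of phospholipid synthesis (15.94, 7 tags).

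In HEK293T cells the coding-exon peaks of highest fold enrichment were in genes of varied function. MRPL20, a protein of the mitochondrial large ribosomal subunit, and SPEN, a transcriptional corepressor that binds RNA, both had a fold enrichment of 24.85 with 9 tags. HSPA1B, an inducible chaperone of the HSP70 family, had 22.09 with 13 tags, and PDPK1, the kinase that activates AKT, had 22.09 with 9 tags. SKIC2, the helicase of the Ski complex that feeds RNA to the exosome, had 19.33 with 10 tags. EIF4G1, the scaffold of the cap-binding initiation complex, had 19.33 with 9 tags, and ZNF598, a ubiquitin ligase that senses collided ribosomes, had 19.33 with 11 tags. The coding exon under the MRPL20 peak belongs to a transcript that is not the canonical one of that gene.

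The 4 HEK293T peaks with a false discovery rate of 5% or less were in MRPL20 (3.93%), ZNF891 (1.12%), ACTG1 (1.43%) and RPL13A (4.91%). The peaks in ACTG1, which encodes cytoplasmic gamma-actin, and in ZNF891, a zinc finger gene, were the longest of the 76, at 304 and 310 bases. ACTG1 had 30 tags and ZNF891 had 28, also the most of the 76, with fold enrichments of 19.33 and 15.38.

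Several HEK293T genes held more than 1 coding-exon peak. The 7 genes ACTG1, SRRM2, ZNF721, WDR24, NEURL4, ZNF594 and P4HB held 2 each, so the 76 peaks fell in 69 genes. In WDR24, part of the GATOR2 complex that signals amino acids to mTORC1, the peaks were 2 bases apart. In P4HB, which encodes protein disulfide isomerase, they were 22 bases apart, and in ACTG1 they were 56 bases apart in the same exon. The NEURL4 and SRRM2 peaks were 6491 and 6825 bases apart. Peaks of 1 gene come from the same library and are not replicates of each other. Another peak of the list lay within 5 kb of 34 of the 76 coding-exon peaks (44.7%), against 40.9% of other peaks.

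Ribosomal protein genes held 4 of the 76 HEK293T coding-exon peaks (5.26%), against 0.176% of coding placement, which gives 0.134 peaks. RPL13A had a fold enrichment of 14.51 with 14 tags, RPL3 12.45 with 11 tags, RPL23A 16.57 with 9 tags and RPS6 16.57 with 11 tags. No ribosomal protein gene held a coding-exon peak in the DU 145 lists. These genes have many processed pseudogenes, intronless copies made from mRNA. With up to 2 mismatches the summit sequence of each matched more than 1 place in hg19. Its own place included, there were 9 for RPL13A, 7 for RPL3, 4 for RPS6 and 2 for RPL23A. All 4 intervals included bases outside the coding exon, which the printed RPL3 interval shows. How the mapping assigned reads among such copies is not given in the sources used here.

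Other genes of translation and 1 ubiquitin ligase were seen among the HEK293T peaks, named here after their values were seen. EEF2, the translocase of elongation, had a fold enrichment of 13.81 with 8 tags, and EIF5A, the hypusine-containing elongation factor, had 17.59 with 9 tags. QARS1, the glutaminyl-tRNA synthetase, had 12.82 with 10 tags, and AIMP2, a scaffold of the complex of tRNA synthetases, had 19.33 with 9 tags. RNF40, part of the ligase that ubiquitinates histone H2B, had the lowest fold enrichment of the 76, 7.69 with 23 tags.

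Zinc finger genes formed the largest of the gene groups counted. They held 12 of 76 HEK293T coding-exon peaks (15.8%) in 10 genes, against 8.41% of coding placement, which gives 6.39 peaks. Under dual cross-linking in DU 145 cells ZNF587B was the 1 of 24, against 5.21% of placement. Among the 12 peaks the fold enrichment ran from 9.13 in ZNF268 to 19.33 in ZNF598, and ZNF721 had 16.57 and 15.38 for its pair. The midpoint of 8 of the 12 fell inside a C2H2 finger, against 38.5% of the coding positions of zinc finger genes. Of the 11 intervals of 300 bases or fewer, 7 held the codons of a whole finger. The printed ZNF84 interval holds 2 whole fingers, and those of ZNF721 and ZNF180 hold 1 each. Of the remaining groups counted, the dyneins and kinesins (DNAH2) and the ubiquitin hydrolases and ligases (RNF40) held 1 HEK293T peak each. Protocadherins, histones, mucins, keratins, collagens, homeobox clusters, solute carriers and shelterin held 0 in every list.

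HEK293T coding-exon peaks were gathered on a few chromosomes. Chromosome 17 held 22 of them against 2.67 by placement, chromosome 16 held 13 against 3.54 and chromosome 19 held 9 against 6.57. Chromosomes 16, 17 and 19, which are rich in genes, together held 44 of the 76 (57.9%) against 12.8 by placement. The other chromosomes held 32, also against 12.8. In DU 145 cells with dual cross-linking these 3 chromosomes held 5 of 24 against 3.67, and in the formaldehyde list 0 of 4 against 8.34. Chromosome 13 had 227 HEK293T peaks and 0 coding-exon peaks against 1.31 by placement.

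**Figure D4:**
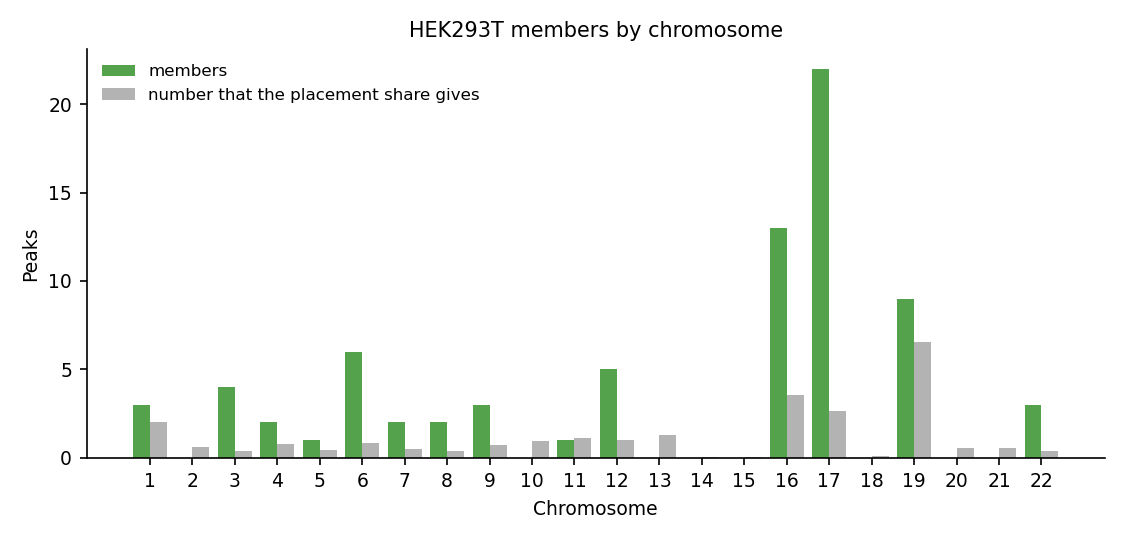
Number of HEK293T coding-exon peaks on each chromosome (green) and the number that the placement share of that chromosome gives (grey). Chromosome 17 holds 22 against 2.67, chromosome 16 holds 13 against 3.54, and chromosome 19 holds 9 against 6.57.

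The base content of the coding-exon peaks was nearer to that of coding sequence than to that of the other peaks. The rule placed each midpoint in coding sequence, so this follows in large part from the rule. The median G + C content was 54.9% in HEK293T coding-exon peaks, 47.5% in other peaks of the list and 53.4% in coding windows. With dual cross-linking in DU 145 cells it was 50.2%, against 47.1% in other peaks and 51.0% in coding windows. The 4 formaldehyde peaks had a median of 41.1%, 10.4 points under coding windows, in a list whose other peaks had 29.2%. The list with the lowest coding share was thus also the richest in A + T, and the part of base content in that share was not tested. HEK293T coding-exon peaks were drawn from the middle of the coding range. Above the coding median lay 47 of the 76, above the upper quartile lay 4 and below the lower quartile lay 7. A content of 65% or more was found in 1 of 76, while 15.99% of coding windows had it.

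**Figure D5:**
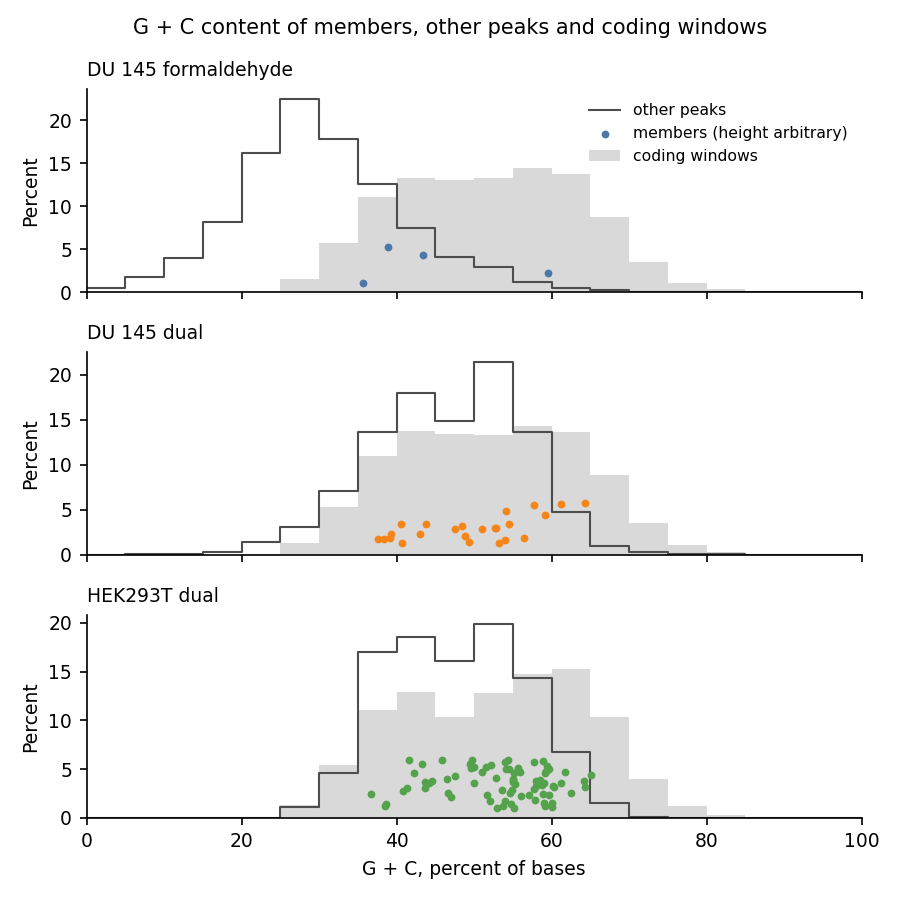
G + C content (percent of bases) of coding-exon peaks (coloured points, height arbitrary), of other peaks (line, percent of peaks per bin of 5 points) and of coding windows (grey bars, percent of windows). In HEK293T the points run from 36.6% to 65.04%, inside a coding range that extends further on both sides.

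CpG dinucleotides per 100 bases had a median of 2.68 in HEK293T coding-exon peaks, against 1.43 in other peaks, and lay 0.142 above coding windows. The highest value, 11.8, was in the second SRRM2 peak, in an exon of 6701 coding bases that encodes a serine- and arginine-rich protein of nuclear speckles. With dual cross-linking in DU 145 cells the median was 1.95 against 0.705 in other peaks. At least 2 consecutive telomeric hexamers were in 0 of the 104 coding-exon peaks, whereas the remaining peaks held them in 12.1% of cases with dual cross-linking and 2.96% with formaldehyde in DU 145 cells, and in 2.46% in HEK293T cells. Coding windows held them in 0.00116% to 0.00178% of cases. Polypurine runs were also in 0 of the 104, against 2.30% of other formaldehyde peaks, 8.4% of other dual cross-linked DU 145 peaks and 0.359% of other HEK293T peaks, and against 0.101% to 0.129% of coding windows. Coding windows seldom held either pattern, so both counts of 0 follow largely from the rule. A pattern of 4 runs of 3 or more G (or C) was in 4 of 76 HEK293T coding-exon peaks (5.26%), near the 5.13% of other peaks, and in 0 of 24 with dual cross-linking in DU 145 cells, where other peaks had 16.8%. Coding windows had it in 3.17% of cases for the HEK293T list and 1.91% for the dual cross-linked DU 145 list. A count of 0 of 24 allows a share of up to 12.5%.

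Within genes most peaks were in internal exons, though in both dual cross-linked lists that share was below the placement share. In HEK293T cells 49 of 76 (64.5%) were in internal coding exons, 19 in the last, 6 in single-exon coding sequences and 2 in the first. Placement there gives 71.0%, 21.2%, 4.04% and 3.82%. In DU 145 cells with dual cross-linking 15 of 24 (62.5%) were internal, 6 last, 3 single and 0 first. Placement for that list gives 73.8%, 18.3%, 4.03% and 3.91%. The exon under the HEK293T peaks had a median length of 192.5 bases, against 187 by placement, and the longest was the exon of 8176 bases in SPEN. Exons of 1000 bases or more held 15 of the 76, a count for which no placement share was taken. The whole interval lay within 1 coding exon for 29 HEK293T peaks (38.2%), 10 of the 24 dual cross-linked DU 145 peaks and 1 of the 4 formaldehyde peaks, that of OR6C3. A median of 93.7% of the bases of a HEK293T peak were coding, with a lowest value of 43.7% in RPL13A. The coding exon was absent from the canonical transcript for 7 HEK293T peaks (MRPL20, MSRB1, RABL6, both of WDR24, DUS1L and 1 of P4HB) and for 3 dual cross-linked DU 145 peaks (ZNF587B, NPNT and ERI1).

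Near-identical copies concerned a minority of the peaks. With up to 2 mismatches, the mapping tolerance of the study, the 50 bases around the summit matched more than 1 place for 17 of 76 HEK293T peaks, 2 of 24 dual cross-linked DU 145 peaks and 0 of 4 formaldehyde peaks. An exact second copy was found for 5 of the 76 (6.58%), in HSPA1B, RPS6, AMY1A, RPL3 and ATF4, against 15.4% of other HEK293T peaks. AMY1A, one of the salivary amylase genes, had 6 exact places, and HSPA1B had 2. The signal at these genes is uncertain as to which copy it came from.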

How the data were processed

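SOLiD reads of 50 bases were aligned to hg19 by the authors in Lifescope, who called peaks with MACS 1.4.2 in each ChIP library against its input at p 1e-05 and mfold 10 to 30. The deposited tags are counts that the authors did not scale. Library totals are not in the files and the study gives read totals per cell line only, so the depth of each library is unknown. The score that the authors deposited lost its column name and was read as the p-value on a scale of −10 log10, from its lowest values. The deposited fold enrichment is a ratio to the local input background, and the deposited FDR is a percent.

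Placement shares were computed exactly over all readable positions of each peak's chromosome, in place of random intervals. They describe position and are no test. Coding windows had the median length of the list's coding-exon peaks and were taken every 25 bases. Shares have 95% Wilson intervals, which cover counting error only. With 1 library per condition no test was run. A peak overlapped another when the midpoint of either lay in the other. Gene groups were set by symbol.

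The genes named were the 8 highest by fold enrichment in each list, genes with peaks in 2 or more lists, genes with 2 or more peaks in 1 list, peaks with an FDR of 5% or less (up to 8 of highest fold enrichment per list) and groups with at least 3 peaks. Others were named after their values were seen. The peaks, lists and groups were chosen with earlier results of these data known. Some genes and sequences that met these rules are not reported here. Alternatives covered the midpoint, promoter window, transcripts, thresholds, merged peaks, repeated summits and chromosomes. The steps were tested on simulated data. The tools were matplotlib 3.10.9, pysam 0.24.0, scipy 1.17.1, pandas 2.3.3, numba 0.67.0 and numpy 2.4.6 under Python 3.11.15.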

Additional observations from a re-analysis of the deposited data

How the results depend on the processing

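The share of coding-exon peaks kept its order, lowest with formaldehyde and highest in HEK293T, under every alternative except an FDR of 5% or less. In the formaldehyde list it was 0.660% with any overlap of 1 base and 0% under both thresholds. In the dual cross-linked DU 145 list it was 0.687% at a score of at least 100 and 1.25% at an FDR of 5% or less, and in HEK293T cells 0.939% and 1.11%, from 2 and 4 peaks. The HEK293T share was 5.73% with any overlap of 1 base, 2.37% with a promoter window of 2 kb and 2.22% without chromosomes 16, 17 and 19, an alternative chosen after seeing the data. The HEK293T ratio of median fold enrichment was 2.20 at a score of at least 100, 1.999 at an FDR of 5% or less and 1.29 without those chromosomes. In the dual cross-linked DU 145 list this ratio turned from below 1 to 1.01 at a score of at least 100 and 1.15 at an FDR of 5% or less.

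The difference in G + C from coding windows changed sign in both dual cross-linked lists. In DU 145 cells it was 0.884 points with any overlap of 1 base, 0.0417 with a promoter window of 500 bases, with peaks within 1 kb counted once and without chromosomes 16, 17 and 19, 1.78 with APPRIS principal transcripts and 5.98 at a score of at least 100. In HEK293T cells it was -2.83 at a score of at least 100, -0.833 at an FDR of 5% or less and -1.81 without those chromosomes. The cause was not tested. No paired analysis was possible because each condition had 1 ChIP library and the result comes from no test. Most peaks had tag numbers near the lowest of their list, and the depth of each library is unknown, so small differences in strength were not detectable.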

Other observations

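Chromosomes X and Y were outside the peaks described above. Under the same rule the X chromosome held 1 coding-exon peak in the formaldehyde list, 2 in the dual cross-linked DU 145 list and 2 in HEK293T cells, and the Y chromosome held 0 in each. CHM, a Rab escort protein, held 1 of the dual cross-linked DU 145 peaks, with 7 tags and a fold enrichment of 15.94.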
